A study of Homo sapiens with 6 samples.

Results

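The 40 genes described here encode the core machinery of autophagy and its cargo receptors. They were taken as the probe sets whose gene symbol in the platform annotation is on a fixed list of 40 autophagy symbols, and all 40 were found among the 24241 genes tested. The 2 groups were cells of HepG2, a human liver tumour line, given 0.75 µM verteporfin, or its solvent DMSO alone, for 24 hours. Each group has 3 arrays, each hybridised with labelled RNA of 1 sample, and the labels name neither a genetic change nor light exposure. Verteporfin is a porphyrin-derived photosensitiser that is also described as an inhibitor of autophagosome formation and of the YAP-TEAD complex. HepG2 cells are a single tumour line and stand for hepatocytes only in part. The labels do not state that a group's samples were separate cultures, so the p-values cover the spread among these arrays, which could be technical only. In cell populations, less transcript per cell and fewer cells of a kind cannot be told apart.

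Autophagy encloses cytoplasm, organelles or protein aggregates in a double membrane, the autophagosome, which then fuses with lysosomes. The ULK1 kinase complex starts the process, the class III PI3-kinase complex marks the membrane with the lipid PI3P, and WIPI proteins read that mark. ATG9A and the ATG2 lipid transfer proteins supply membrane, and 2 ubiquitin-like conjugation reactions attach LC3 and GABARAP proteins to it, where cargo receptors such as SQSTM1 dock. Several of these genes are known to be induced when lysosomal stress activates TFEB and TFE3 or when the integrated stress response activates ATF4. Transcript levels do not measure the rate at which autophagosomes are formed or degraded.

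The arrays of 1 group correlated at 0.995 to 0.997 across genes and those of different groups at 0.969 to 0.977. Of 9 hepatocyte markers, all had a mean above the median signal of 4.83 in both groups. These means ran from 7.56 to 12.5 in verteporfin and from 10.3 to 13.4 in DMSO. Of the 9, 8 fell (limma, adjusted p under 0.05), and 7 fell at least 2-fold. Over all genes 14.3% were lower, and over those at or above the median signal 25.6%. Of the latter, 720 of 12257 fell at least 2-fold. Of 9 measured markers of other cell types, 5 lay below the median signal, among them the leukocyte gene PTPRC at 3.44 in verteporfin and 3.48 in DMSO. CD68, COL1A1, ACTA2 and DES lay above it. In verteporfin and DMSO, COL1A1 averaged 6.45 and 6.57, ACTA2 6.76 and 7.23, and DES 5.06 and 5.06. CD68, which is a lysosomal membrane protein as well as a macrophage marker, was the member of that list that rose (log2 difference 0.26 ± 0.06 SE, adjusted p = 0.0134). The part of these shifts in the values below was not tested.

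Verteporfin-treated cells had more transcript of 23 of the 40 autophagy genes and less of 1, while 16 did not pass (limma, adjusted p under 0.05). Over all genes 14.3% were higher and 14.3% lower, and over the 12257 genes at or above the median signal 26.3% were higher and 25.6% lower. The autophagy genes are mostly well expressed, with 36 of 40 at or above that signal, and of these 36, 22 were higher and 1 lower. The median log2 difference was 0.39 over the 40 genes, against 0.0049 over all genes and 0.023 over those at or above the median signal. On the verteporfin arrays 36, 32 and 35 of the 40 genes lay above their DMSO mean, and on the DMSO arrays 22, 21 and 13. The matching share of all genes was not counted. For 28 genes the 3 verteporfin arrays all lay above the 3 DMSO arrays, which held for 19.6% of all genes. At or above the median signal it held for 26 of 36 members and 3898 of 12257 genes. The rise was at least 2-fold for 5 genes, namely WIPI1, WDR45, ATG4A, OPTN and SQSTM1. Over all genes 658 of 24241 rose at least 2-fold, and 645 of the 12257 at or above the median signal. The count of members that rose was 22 to 24 when any 1 array was left out.

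**Figure D1:**
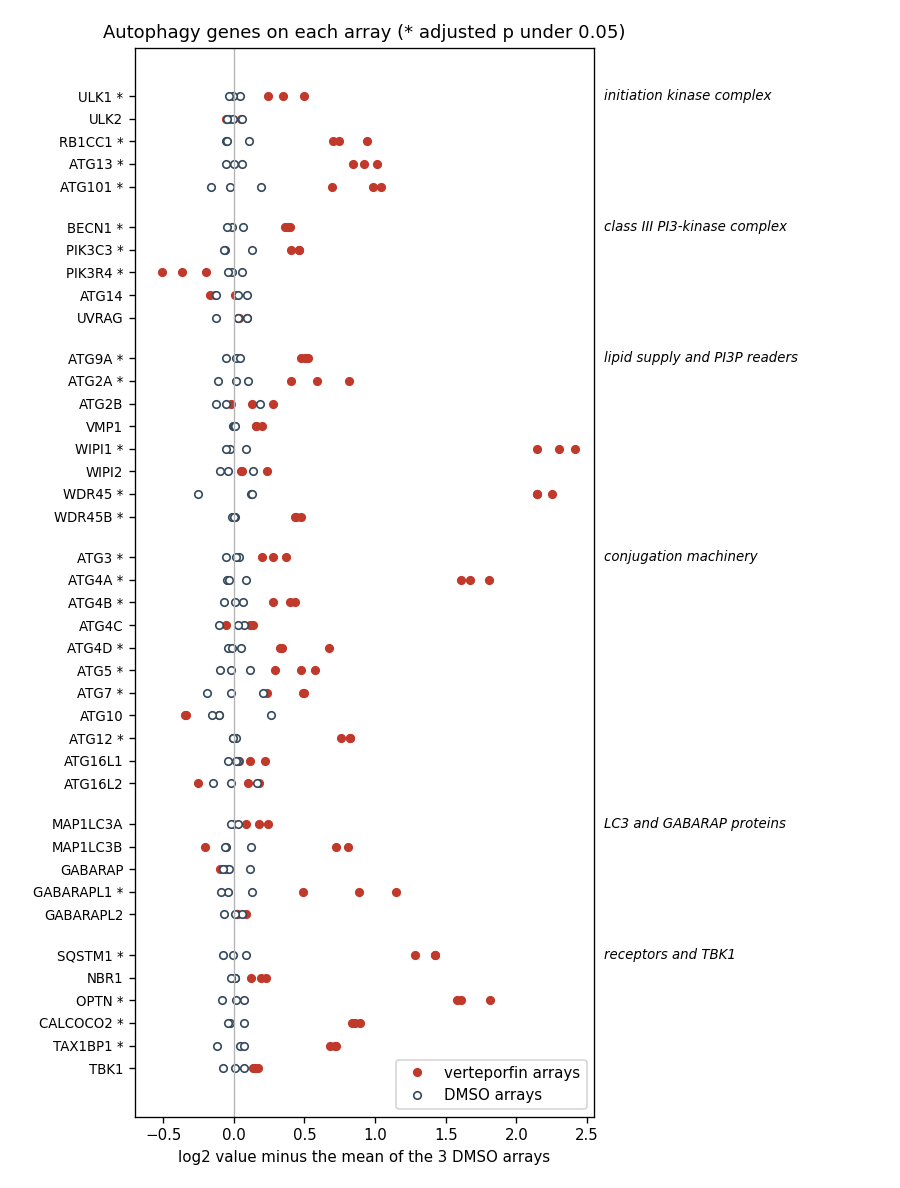
Each row is 1 autophagy gene, ordered by role, and each point is 1 array, as its log2 value minus the mean of the 3 DMSO arrays (filled, verteporfin; open, DMSO; an asterisk marks an adjusted p under 0.05). WIPI1, WDR45, ATG4A, OPTN and SQSTM1 lie farthest to the right, and PIK3R4 is the gene past the threshold to the left.

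**Figure D2:**
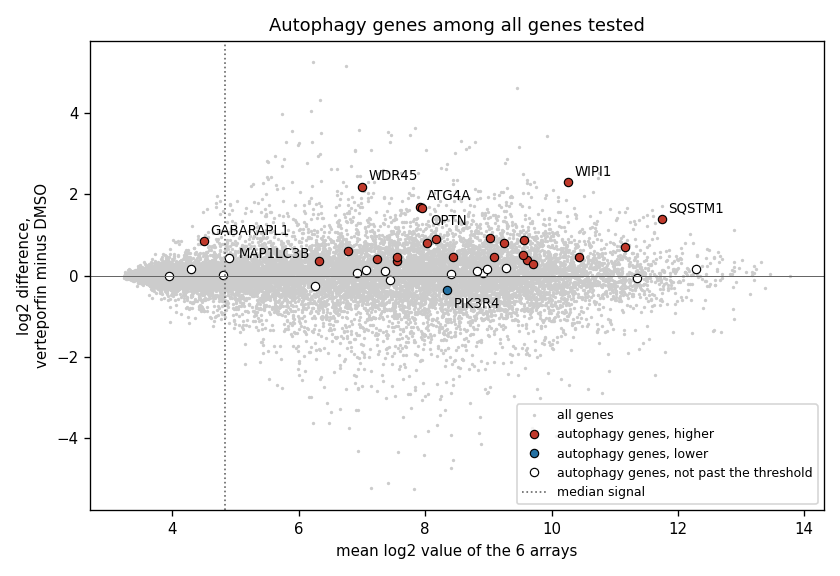
The log2 difference, verteporfin minus DMSO, is plotted against the mean log2 value of the 6 arrays for all 24241 genes (grey) and the 40 autophagy genes (circles). The median signal of 4.83 is dotted, and 36 of the 40 autophagy genes lie at or above it. A positive difference was found for 35 of the 40, against 12428 of all 24241 genes. At or above the median signal it was found for 32 of 36 members and 6417 of 12257 genes.

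The start regions of the genes at both ends of the called members are shown so that their sequence can be set beside the values: the 3 with the highest and the 2 with the lowest log2 difference among those that passed. Each is the 250 bases before the RefSeq start of the gene, GRCh38.p14, read 5′ to 3′ on the gene's strand. WIPI1 (chr17:68457497-68457746, minus strand), WDR45 (chrX:49101179-49101428, minus strand) and ATG4A (chrX:108091528-108091777, plus strand) rose most. ATG3 (chr3:112561963-112562212, minus strand) rose least, and PIK3R4 (chr3:130746830-130747079, minus strand) fell. Capitals mark matches on either strand to the GC box GGGCGG, the CCAAT box CCAAT and the E-box CACGTG that TFEB and TFE3 bind.
WIPI1: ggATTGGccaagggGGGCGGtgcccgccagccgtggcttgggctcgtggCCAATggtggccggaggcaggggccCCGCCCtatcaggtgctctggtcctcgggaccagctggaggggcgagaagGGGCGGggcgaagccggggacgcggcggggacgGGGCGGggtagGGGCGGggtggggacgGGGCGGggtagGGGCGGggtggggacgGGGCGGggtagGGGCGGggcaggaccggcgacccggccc
WDR45: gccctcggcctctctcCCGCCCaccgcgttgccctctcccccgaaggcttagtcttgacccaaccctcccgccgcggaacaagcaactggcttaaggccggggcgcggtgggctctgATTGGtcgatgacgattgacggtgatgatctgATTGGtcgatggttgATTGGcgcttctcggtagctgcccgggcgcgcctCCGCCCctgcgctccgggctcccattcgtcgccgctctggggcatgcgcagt
ATG4A: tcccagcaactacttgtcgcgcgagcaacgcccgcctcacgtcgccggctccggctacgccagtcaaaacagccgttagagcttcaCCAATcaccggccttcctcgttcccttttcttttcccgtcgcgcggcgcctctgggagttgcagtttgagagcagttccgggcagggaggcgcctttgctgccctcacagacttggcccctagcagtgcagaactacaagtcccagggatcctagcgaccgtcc
ATG3: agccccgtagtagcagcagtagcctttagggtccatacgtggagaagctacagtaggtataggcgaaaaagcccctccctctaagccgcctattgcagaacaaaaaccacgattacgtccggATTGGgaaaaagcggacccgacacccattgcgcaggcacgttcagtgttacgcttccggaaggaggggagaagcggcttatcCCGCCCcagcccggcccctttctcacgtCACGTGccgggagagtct
PIK3R4: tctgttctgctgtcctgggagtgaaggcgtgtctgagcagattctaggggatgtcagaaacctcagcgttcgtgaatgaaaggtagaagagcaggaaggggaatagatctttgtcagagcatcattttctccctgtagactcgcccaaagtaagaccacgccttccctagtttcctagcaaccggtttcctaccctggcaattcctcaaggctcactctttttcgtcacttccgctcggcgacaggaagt

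The WIPI1 window held 9 GC boxes and a pair of CCAAT boxes, the WDR45 window 2 GC boxes and 3 CCAAT boxes, and the ATG4A window 1 CCAAT box. The ATG3 window had an E-box 18 to 13 bases before the start, as well as a GC box and a CCAAT box, and the PIK3R4 window had no match to any motif searched. Promoter windows were matched for 35 of the 40 genes, and those of ATG4D, MAP1LC3A, RB1CC1, UVRAG and WDR45B were not used. The E-box was found in 3 of the 35 (ATG3, ATG14 and TBK1), or 8.57%, and in 6.34% of the 35116 promoters in the table. Among all genes at or above the median signal, 9.14% of those that rose and 9.24% of the rest held it, so the share among the autophagy genes is near the background. It lay in 1 of the 20 matched autophagy genes that rose and in 2 of the other 15. The element TGATGNAA, bound by ATF4 with its partners, was found in 0 of the 35, against 3.14% of all promoters, and in 1.17% and 1.43% of those 2 classes of brighter genes. The antioxidant element core TGACNNNGC was found in 3 (ATG101, CALCOCO2 and MAP1LC3B), against 10.9% of all promoters, and in 13.6% and 12.0% of those classes. Neither of these lies in the 5 windows printed. CCAAT boxes lay in 11 of the 20 matched genes that rose and in 2 of the other 15. Among all genes at or above the median signal, 36.9% of those that rose and 34.9% of the rest had a CCAAT box. The GC box was found in 14 of the 20 that rose and in 9 of the other 15, against 70.9% and 65.3% of those gene classes. The CCAAT and GC boxes were added after the sequences had been seen, and no test was made on any motif. Only the 250 bases before the start used for each gene were searched, so sites elsewhere are not in these counts. Whether the factors named act on these genes was not tested.

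Of the 5 genes of the initiation complex, 4 rose. This count and those of the other roles below stand beside the shares of all genes, 14.3% higher and 14.3% lower. Over genes at or above the median signal the shares were 26.3% and 25.6%. The roles were not tested against these shares. ATG13, the subunit that ties the kinase to its scaffold, measured 9.57, 9.40 and 9.48 (log2) on the verteporfin arrays, against 8.56, 8.50 and 8.62 on the DMSO arrays. Its groups were well apart, and the difference was 0.93 ± 0.07 (moderated SE, adjusted p = 4.23e-05), or 1.90-fold. ATG101, the partner that stabilises ATG13, measured 8.76, 8.70 and 8.41 in verteporfin and 7.90, 7.68 and 7.55 in DMSO. Both groups spread more than those of ATG13 without touching, with a difference of 0.91 ± 0.12 (adjusted p = 0.000801). RB1CC1, the large scaffold also called FIP200, measured 9.80, 9.56 and 9.60 in verteporfin and 8.80, 8.96 and 8.81 in DMSO, a rise of 0.80 ± 0.09 (adjusted p = 0.000257). The kinase ULK1 itself rose by 0.36 ± 0.08 (adjusted p = 0.0099). Its relative ULK2 lay below the median signal in both groups, with a difference of -0.01 ± 0.06.

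In the class III PI3-kinase complex 2 of the 5 genes rose and 1 fell. The 1 of 5 that fell is near the shares that were lower, 14.3% of all genes and 25.6% of those at or above the median signal. BECN1, the Beclin 1 scaffold, averaged 9.81 ± 0.02 in verteporfin and 9.43 ± 0.06 in DMSO (SD, n = 3 each), a rise of 0.38 ± 0.06 (SE, adjusted p = 0.00199). PIK3C3, the lipid kinase subunit VPS34, rose by 0.44 ± 0.07 (adjusted p = 0.00236). PIK3R4, the pseudokinase subunit VPS15 that holds VPS34 in the complex, measured 8.02, 8.16 and 8.33 in verteporfin and 8.58, 8.51 and 8.48 in DMSO. Its verteporfin arrays all lay lower, by a difference of -0.35 ± 0.09 (adjusted p = 0.0183), and without DMSO replicate 1 the adjusted p was 0.069. The subunits that set apart the 2 forms of the complex did not pass. ATG14, which directs it to autophagosome formation, differed by -0.10 ± 0.08 (95% interval -0.29 to 0.10). UVRAG, which directs it to endosomes, differed by 0.05 ± 0.07 (-0.12 to 0.22).

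Among the lipid supply proteins and PI3P readers, 5 of 8 genes rose, and this group held the highest differences. WIPI1, a PI3P-binding propeller protein of the early autophagosome, measured 11.53, 11.27 and 11.42 in verteporfin, against 9.21, 9.09 and 9.06 in DMSO. The groups lay more than 2 log2 units apart, with a difference of 2.29 ± 0.08 (adjusted p = 2.14e-06), or 4.89-fold. WDR45, the WIPI4 protein that binds ATG2 and whose gene is mutated in a form of neurodegeneration with brain iron accumulation, measured 8.17, 8.06 and 8.06 in verteporfin and 6.04, 5.66 and 6.05 in DMSO. DMSO replicate 2 was the low one, and the difference was 2.18 ± 0.11 (adjusted p = 7.11e-06), or 4.54-fold. Among their relatives, WDR45B, also called WIPI3, rose by 0.45 ± 0.06 (adjusted p = 0.000563), and WIPI2, which recruits ATG16L1, differed by 0.12 ± 0.09 (adjusted p = 0.427) with overlapping arrays. The WIPI1 change exceeded that of WIPI2 by 2.17 ± 0.05 on the log2 scale, and the WDR45 change that of WDR45B by 1.73 ± 0.14. Each pair gave p = 0.1 in an exact permutation test over the arrays, two-sided, the smallest p that 3 against 3 arrays allow.

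ATG9A, the scramblase carried by the vesicles that seed the membrane, measured 9.81, 9.83 and 9.78 in verteporfin and 9.32, 9.35 and 9.25 in DMSO, a rise of 0.50 ± 0.06 (adjusted p = 0.000428). ATG2A, a lipid transfer protein, measured 7.29, 6.88 and 7.06 in verteporfin and 6.49, 6.36 and 6.57 in DMSO, a rise of 0.60 ± 0.11 (adjusted p = 0.00434). Its relative ATG2B differed by 0.13 ± 0.11, with overlapping arrays. VMP1, a membrane protein of the endoplasmic reticulum needed at the site of formation, averaged 12.37 ± 0.02 in verteporfin and 12.20 ± 0.01 in DMSO (SD, n = 3 each). Its groups did not overlap, but the difference of 0.17 ± 0.06 did not pass (adjusted p = 0.0585). It passed with an intensity trend and robust estimation (0.002), after cyclic loess (0.0469) and without genes below the median signal (0.0456).

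Of the 11 conjugation genes, 7 rose and 0 fell; at an unadjusted p under 0.05 limma likewise had 7. ATG4A, a cysteine protease that trims LC3 and GABARAP proteins before they are attached and frees them again, measured 8.88, 8.75 and 8.68 in verteporfin, against 7.02, 7.04 and 7.16 in DMSO. All verteporfin arrays lay well above all DMSO arrays, and the difference was 1.70 ± 0.08 (adjusted p = 4.7e-06), or 3.24-fold. Of the other proteases of the family, ATG4B rose by 0.37 ± 0.07 (adjusted p = 0.00535) and ATG4D by 0.45 ± 0.10 (adjusted p = 0.0121). ATG4C, at 0.06 ± 0.08, did not pass. The ATG4A change exceeded those of ATG4B, ATG4C and ATG4D by 1.33 ± 0.09, 1.63 ± 0.13 and 1.25 ± 0.08, each with p = 0.1 in the exact permutation test. ATG4B, ATG4C and ATG4D were not compared with each other.

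ATG12, the ubiquitin-like protein joined to ATG5, measured 8.45, 8.45 and 8.38 in verteporfin and 7.62, 7.64 and 7.62 in DMSO. The DMSO arrays were nearly equal, and the rise was 0.80 ± 0.06 (adjusted p = 3.5e-05), or 1.74-fold. Its partner ATG5 rose by 0.45 ± 0.09 (adjusted p = 0.00769). Of the enzymes of the reactions, 2 rose. ATG3, which passes LC3 to its lipid, rose by 0.28 ± 0.07 (adjusted p = 0.0161, and 0.0567 without DMSO replicate 2). ATG7, which activates both ubiquitin-like proteins, rose by 0.41 ± 0.12 (adjusted p = 0.0355), and that call was lost in 6 of 11 alternatives, with an adjusted p of up to 0.113. Those 6 left out verteporfin replicate 1 or 3 or DMSO replicate 1 or 3, used the replicate block, or used cyclic loess. ATG10, which passes ATG12 to ATG5, measured 6.05, 6.29 and 6.06 in verteporfin and 6.29, 6.66 and 6.24 in DMSO. Its groups overlapped, and the difference of -0.26 ± 0.12 did not pass (adjusted p = 0.18), whereas with the replicate number as a block it did (0.0483). ATG16L1, the scaffold that sites the reaction, differed by 0.12 ± 0.07, and ATG16L2, below the median signal in both groups, by 0.01 ± 0.13.

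Of the 5 LC3 and GABARAP genes, whose proteins coat the membrane, 1 rose and 4 did not pass. The 1 of 5 is near the shares that rose, 14.3% of all genes and 26.3% of those at or above the median signal. GABARAPL1 measured 5.22, 4.56 and 4.96 in verteporfin and 4.03, 3.98 and 4.20 in DMSO. Every verteporfin array lay higher, with a difference of 0.84 ± 0.16 in measured signal (adjusted p = 0.00458). All its DMSO arrays were below the median signal, so the size of the change in transcript is not given by this value. MAP1LC3B, which encodes the widely used marker LC3B, measured 5.48, 4.47 and 5.40 in verteporfin and 4.61, 4.79 and 4.61 in DMSO. Verteporfin replicate 2 lay below every DMSO array while the other two lay above them, and the difference of 0.44 ± 0.25 did not pass (adjusted p = 0.263). Without verteporfin replicate 2 the difference was 0.77 and passed (adjusted p = 0.00068). All its DMSO arrays were below the median signal too, so these values are likewise differences of measured signal. MAP1LC3B has a near-identical copy, MAP1LC3B2, whose probe set was brighter. It averaged 6.91 in verteporfin and 6.20 in DMSO, above the median signal in both groups. That probe set differed by 0.71 ± 0.34 (adjusted p = 0.184), and how the probes tell the copies apart is not given in the sources used here. GABARAPL1 has a copy too, GABARAPL3, whose probe set lay below the median signal in both groups.

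GABARAP measured 11.34, 11.32 and 11.28 in verteporfin and 11.35, 11.30 and 11.49 in DMSO, a difference of -0.06 (95% interval -0.23 to 0.10). GABARAPL2 differed by 0.04, with an interval of -0.10 to 0.19. MAP1LC3A, below the median signal in both groups, differed by 0.17 ± 0.07 (adjusted p = 0.1). For GABARAP and GABARAPL2 the intervals hold no change of the size seen for WIPI1 or ATG4A.

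Of the 5 cargo receptors and the kinase TBK1, 4 rose. OPTN, optineurin, a ubiquitin-binding receptor for damaged mitochondria and bacteria, measured 8.93, 8.73 and 8.70 in verteporfin, against 7.19, 7.04 and 7.13 in DMSO. It was 3.17-fold higher, with a difference of 1.67 ± 0.08 (adjusted p = 6.97e-06). SQSTM1, the receptor p62 that gathers ubiquitylated protein and is itself degraded by autophagy, measured 12.48, 12.34 and 12.48 in verteporfin, against 11.14, 10.98 and 11.05 in DMSO. Both groups were tight, and the rise in transcript was 1.38 ± 0.07 (adjusted p = 9.26e-06), or 2.60-fold. Protein was not measured. CALCOCO2, the receptor NDP52, measured 10.04, 9.97 and 10.00 in verteporfin and 9.21, 9.11 and 9.10 in DMSO, a rise of 0.86 ± 0.06 (adjusted p = 3.45e-05). Its relative TAX1BP1 measured 11.48, 11.52 and 11.53 in verteporfin and 10.85, 10.88 and 10.69 in DMSO, a rise of 0.70 ± 0.07 (adjusted p = 0.000182). The CALCOCO2 change exceeded that of TAX1BP1 by 0.16 ± 0.06 (exact permutation test, p = 0.1). Probe sets differ in their response, so a gap this small need not be one in transcript.

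NBR1, which shares the domain plan of SQSTM1, measured 9.37, 9.31 and 9.41 in verteporfin and 9.19, 9.19 and 9.17 in DMSO. The groups did not overlap, and the difference of 0.18 ± 0.06 did not pass (adjusted p = 0.0597), though it passed with an intensity trend and robust estimation (0.0425) and without genes below the median signal (0.045). TBK1, the kinase that phosphorylates OPTN and SQSTM1, differed by 0.15 ± 0.06 (adjusted p = 0.131). The SQSTM1 change exceeded that of NBR1 by 1.20 ± 0.05 (exact permutation test, p = 0.1).

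**Figure D3:**
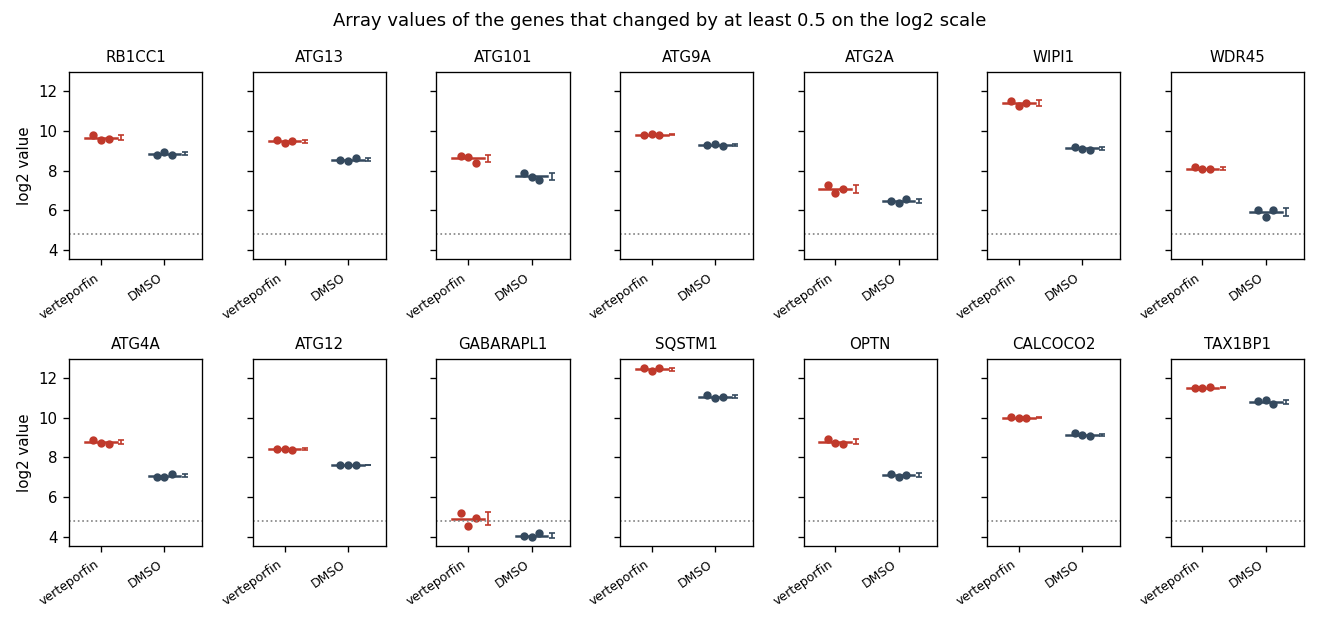
Log2 values of the 14 autophagy genes that passed with a difference of at least 0.5, with a point per array, the group mean as a line, its SD as a bar (n = 3 each) and the median signal of 4.83 dotted. In each panel all verteporfin arrays lie above all DMSO arrays; heights are not comparable between panels, since probe sets differ in their response.

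**Figure D4:**
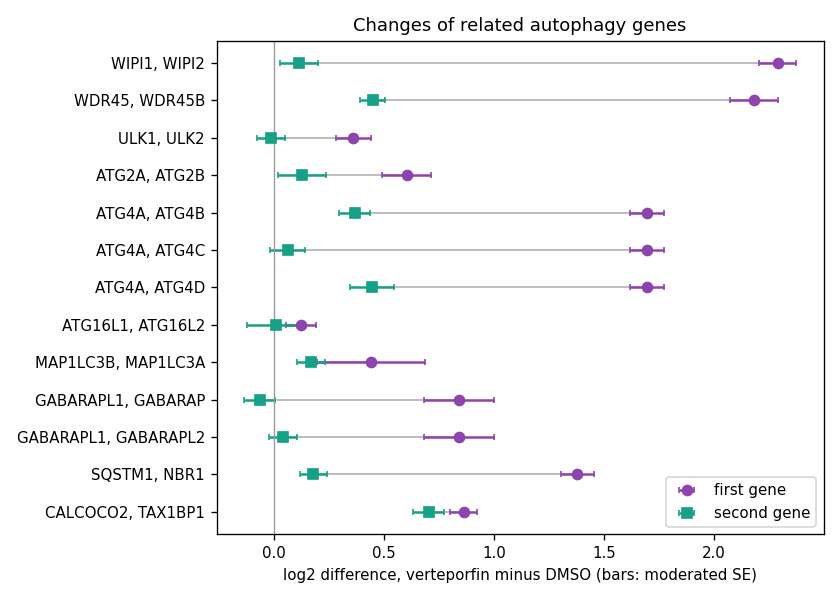
The log2 difference, verteporfin minus DMSO, with its moderated SE, for the genes of 13 related pairs (circle, first gene named; square, second). The gap is widest for WIPI1 and WIPI2, at 2.17, and narrow for CALCOCO2 and TAX1BP1, at 0.16; for ATG16L1 with ATG16L2 and MAP1LC3B with MAP1LC3A the exact permutation p was 0.7 and 0.4. Differences of GABARAPL1 and MAP1LC3B are of measured signal, from DMSO arrays below the median signal. Since probe sets differ in their response, the gaps between genes are of measured signal too.

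Further genes of the pathway were counted from 7 lists holding 94 genes, of which 92 were measured. Of these 37 were higher and 15 lower, with a median difference of 0.11. These counts, and those of each list below, stand beside the 14.3% of all genes and the 26.3% of genes at or above the median signal that were higher. The shares that were lower were 14.3% and 25.6%. The lists were not tested against the core genes or each other. The list named for regulators of the initiation and PI3-kinase complexes, 11 genes, had 7 higher and 1 lower (EI24), with a median of 0.57. It also takes in genes of other roles, such as TMEM41B and ATG9B. RUBCN, known as a brake on the PI3-kinase complex, measured 7.24, 6.92 and 7.03 in verteporfin and 5.61, 5.57 and 5.80 in DMSO, a rise of 1.41 ± 0.10 (adjusted p = 3.38e-05). TMEM41B, a scramblase that works with VMP1, rose by 1.25 ± 0.07 (adjusted p = 1.27e-05). C9orf72 (1.39 ± 0.13) and SH3GLB1 (0.94 ± 0.09), an activator of the PI3-kinase complex, rose as well. The genes of this list that rose thus include both a brake and activators.

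Of 9 receptors for the endoplasmic reticulum, 4 rose and 1 fell, with a median of 0.06. CCPG1, a stress-induced receptor, measured 6.84, 6.30 and 6.32 in verteporfin and 3.99, 4.96 and 4.48 in DMSO. Its difference of 2.01 ± 0.25 in measured signal (adjusted p = 0.000513) starts from a DMSO mean below the median signal. CALCOCO1, a relative of CALCOCO2, rose by 1.45 ± 0.07 (adjusted p = 6.98e-06) and SEC62 by 0.50 ± 0.06, while RETREG3 fell, with a difference of -0.72 ± 0.08. Among 9 mitophagy genes, 3 rose and 3 fell. BCL2L13 (1.12 ± 0.12) and BNIP3L (0.85 ± 0.09), outer membrane receptors, rose. NIPSNAP1 (-1.25 ± 0.11) and NIPSNAP2 (-0.76 ± 0.08), mitochondrial proteins that attract receptors when exposed, fell. Of 7 other adaptors 4 rose and 2 fell. TRIM5 (1.0 ± 0.08) and WDFY3 (0.50 ± 0.08) were among those that rose, whereas the ferritin receptor NCOA4 (-0.77 ± 0.08) and NUFIP1 (-0.63 ± 0.10), a described receptor for ribosomes, fell.

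Of 14 genes for the fusion of autophagosomes with lysosomes, 3 rose and 1 fell, with a median of 0.12, and the 3 are near the share of all genes that rose. The SNARE protein YKT6 measured 10.79, 10.62 and 10.73 in verteporfin and 9.86, 9.77 and 9.80 in DMSO, a rise of 0.90 ± 0.07 (adjusted p = 4.59e-05). PLEKHM1, an adaptor that binds LC3, rose by 0.92 ± 0.18, and the tethering subunit VPS41 fell, at -0.49 ± 0.07. VPS11 rose by 0.28 ± 0.07 (adjusted p = 0.0156), a call lost without verteporfin replicate 1 (0.0511) and without DMSO replicate 1 (0.0629). STX17, the autophagosomal SNARE, differed by -0.03 ± 0.06.

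Upstream of the ULK1 complex, MTORC1 restrains autophagy and AMPK promotes it. Of 28 genes of these pathways 10 were higher and 5 lower, with a median of 0.09. SESN2, a leucine sensor that restrains MTORC1, measured 10.47, 10.12 and 10.21 in verteporfin and 7.14, 6.97 and 7.25 in DMSO, a rise of 3.15 ± 0.11 (adjusted p = 1.92e-06). DDIT4, another MTORC1 inhibitor, rose by 2.34 ± 0.13 (adjusted p = 1.23e-05) and the GTPase RRAGC by 0.71 ± 0.07. SESN1, a relative of SESN2, fell, with a difference of -1.20 ± 0.09 (adjusted p = 3.45e-05).

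Of 14 transcription factors described to act on autophagy genes, 6 rose and 2 fell, with a median of 0.19. TFE3, a partner of TFEB, measured 9.44, 9.20 and 9.31 in verteporfin and 7.96, 7.93 and 8.12 in DMSO, a rise of 1.31 ± 0.09 (adjusted p = 2.36e-05). TFEB itself differed by 0.02 ± 0.11. ATF4 rose by 0.88 ± 0.09, CEBPB by 1.98 ± 0.09, and DDIT3, which encodes CHOP, by 3.28 ± 0.17. The DMSO mean of DDIT3 lay below the median signal, so its difference is one of measured signal. These are transcript values and do not measure where the factors lie in the cell or what they bind.

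**Figure D5:**
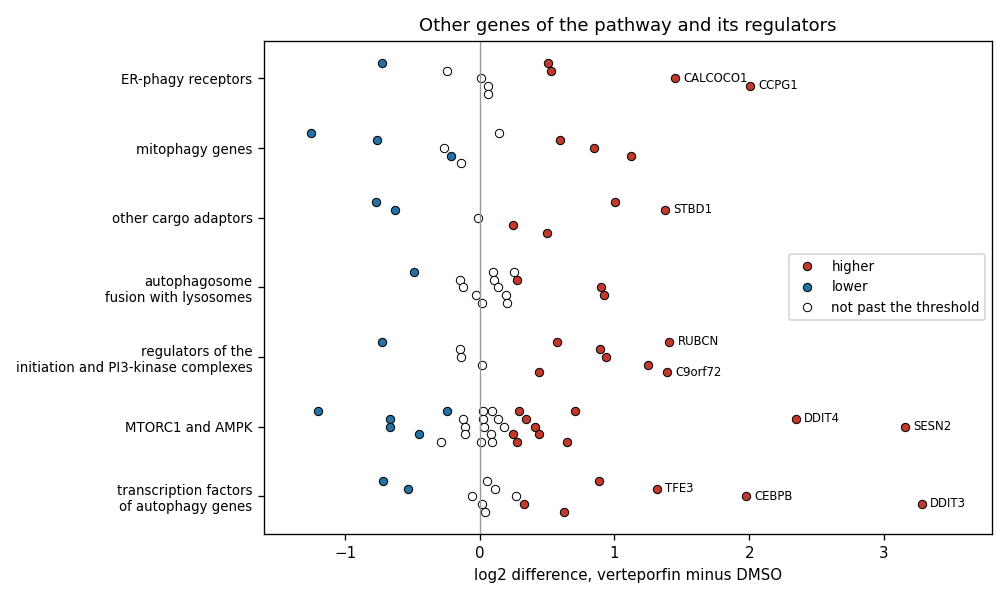
Each point is the log2 difference, verteporfin minus DMSO, of 1 gene in 7 lists of pathway genes outside the core set (red, higher; blue, lower; open, not past the threshold; vertical offsets only separate points). SESN2 and DDIT3 lie farthest to the right, at 3.15 and 3.28, and 10 of the 14 fusion genes are open.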

How the data were processed

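RNA of 6 HepG2 samples, labelled by the Affymetrix protocol per the labels' protocols, was hybridised to 6 arrays. The deposited table holds log2 values from RMA, as named in the submitters' processing notes; its version, the array model and how probe sets were defined are not stated there. Once sorted, all columns held the same values (largest difference 0), so these data cannot show a shift shared by every transcript. Values ran from 3.17 to 13.8. Detection p-values were not used here, so dim probe sets are marked by the median signal only, and the number of arrays limits the precision.

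Of 25582 probe sets, 24244 had 1 gene symbol and 1338 none. For 3 symbols with several probe sets the brightest was kept, which left 24241 genes. The test was limma (version 3.58.1, R version 4.3.3; functions lmFit and eBayes) on verteporfin minus DMSO, two-sided, with Benjamini-Hochberg adjustment over all genes and a threshold of 0.05. SE is the moderated SE of a log2 difference; for differences between genes it comes from the array values. The steps were tested on simulated data.

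The members and lists were chosen with earlier results of these data known. The related pairs may have been as well, since in all 13 the gene named first had the larger difference. Their exact permutation p-values are descriptive only. Members past 0.05 with a difference of at least 0.5, and the 3 largest that did not pass, have their value on every array; in other lists up to 4 genes with the smallest adjusted p are named, and genes named beyond these (CD68, PTPRC, STX17, TFEB, the copies MAP1LC3B2 and GABARAPL3, and the per-array values of some genes) were chosen after their values were seen. Promoters are from RefSeq (GRCh38.p14). Alternatives left out each array and changed the block, normalization, variance prior, filter, threshold and probe set rule.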

Additional observations from a re-analysis of the deposited data

How the results depend on the processing

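The count of autophagy genes that rose, 23, was 22 to 24 when 1 array was left out, 22 with the replicate block, 23 after cyclic loess and with every probe set tested, 25 with an intensity trend and robust estimation, 24 without genes below the median signal and 20 at an adjusted p under 0.01. The count that fell, 1, was 0 to 1 when 1 array was left out, 2 with the replicate block and 0 at an adjusted p under 0.01. Of the 23 genes that rose, 21 kept their call in every alternative fit at 0.05 that held them, the exceptions being ATG3 and ATG7. GABARAPL1 was not among the 36 members in the fit without genes below the median signal. Of 28 named genes of the other lists, 27 kept their call in every alternative fit, the exception being VPS11. The cause of each lost call was not tested. Differences near 0 changed sign when arrays were left out: ULK2 ran from -0.042 to 0.017, UVRAG from -0.0088 to 0.101 and ATG16L2 from -0.075 to 0.139. The labels do not state that same-numbered samples were paired. Deviations of same-numbered arrays correlated at -0.02, -0.15 and -0.01, and those of differently numbered arrays at -0.10 to 0.11. With so few arrays these values cannot exclude a shared batch. The block moved the count of genes past the threshold in either direction by less than 1.5 times over all genes (3209 higher and 3150 lower, against 3460 and 3456). Among the 40 genes it changed the calls of ATG7 and ATG10. Without detection calls, values below the median signal (GABARAPL1 and MAP1LC3B in DMSO, and ULK2, ATG16L2 and MAP1LC3A in both groups) limit what can be said of those genes.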
